A study of Mus musculus with 3 samples.

Results

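Livers taken after ischemia followed by reperfusion (IR) were compared with sham-operated livers (Sham) over their mature microRNAs, in 1 small RNA library for each group. A microRNA was included when its reads in the 2 libraries summed to at least 10, which held for 409 of the 1908 microRNAs listed. A total of 774 microRNAs had at least 1 read in Sham or IR, and the 409 held 99.99% of the microRNA reads of both libraries. The 7 microRNAs with exactly 10 reads had a median log2 fold change of 0.64, and the 6 with 9 reads, just outside the limit, had one of -0.29.

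All mice were male C57BL/6J, an inbred laboratory strain, aged 8 to 10 weeks, with 6 mice in each group. In the IR group the artery, portal vein and bile duct of the left and median lobes were clamped for 1.5 h and flow was then restored for 2 h. The Sham group had the abdomen opened and was kept for 1.5 h without a clamp, so its livers were taken 2 h sooner after surgery, and reperfusion and elapsed time cannot be told apart. A further library came from livers clamped for 1.5 h with no reperfusion (warm ischemia, WI), and its levels are given beside the others. Pooling of RNA across mice within a group was neither stated nor denied.

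MicroRNAs are short RNAs cut from hairpin precursors, and each is loaded into an Argonaute protein that it guides to messenger RNAs. Pairing between the message and the seed, the bases near the 5′ end of the microRNA, largely decides which messages are repressed, so microRNAs that share a seed share most of their targets and can be summed as a family. A hairpin can yield a microRNA from its 5′ side (5p) and from its 3′ side (3p), and one of them is usually kept and the other mostly degraded. Hepatocytes make miR-122, miR-192, miR-194 and miR-148a in bulk, and the organ also holds blood cells, endothelium and stellate cells with microRNAs of their own.

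The sequences of the microRNAs that carried the comparison are shown first, from RefSeq for GRCm38.p6, 5′ to 3′, with the seed (bases 2 to 8) in capitals. The first 6 were abundant liver microRNAs, shown because they set the bulk of the profile.
miR-192-5p: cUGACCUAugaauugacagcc
miR-22-3p: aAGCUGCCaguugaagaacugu
miR-148a-3p: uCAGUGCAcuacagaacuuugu
miR-21a-5p: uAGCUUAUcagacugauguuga
miR-10a-5p: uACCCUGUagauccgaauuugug
let-7f-5p: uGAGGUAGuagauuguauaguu

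The next set was chosen for its shared seeds, which let the members be read against each other. MiR-215-5p carries the seed of miR-192-5p, miR-10b-5p that of miR-10a-5p and let-7a-5p that of let-7f-5p, while the last 3 pairs are the seed families that were called.
miR-215-5p: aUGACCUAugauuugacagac
miR-10b-5p: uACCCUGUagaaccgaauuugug
let-7a-5p: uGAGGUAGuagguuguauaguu
miR-132-3p: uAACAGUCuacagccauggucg
miR-212-3p: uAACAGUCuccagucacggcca
miR-501-3p: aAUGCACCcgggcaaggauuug
miR-500-3p: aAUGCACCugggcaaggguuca
miR-6240: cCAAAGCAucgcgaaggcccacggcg
miR-330-3p: gCAAAGCAcagggccugcagaga

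The last set holds microRNAs with large differences or from other cell types. None of its seeds was shared with a microRNA of the sets above.
miR-2137: gCCGGCGGgagccccagggag
miR-5100: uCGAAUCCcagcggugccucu
miR-5121: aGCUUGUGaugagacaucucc
miR-223-3p: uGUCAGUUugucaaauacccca
miR-223-5p: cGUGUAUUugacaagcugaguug
miR-451a: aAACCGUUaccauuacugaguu
miR-802-5p: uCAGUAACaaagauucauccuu
miR-802-3p: aCGGAGAGucuuugucacucag

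The depth in microRNA reads was 3844133 for Sham, 5064014 for WI and 3784539 for IR. The study reported that a smaller share of clean small RNA reads aligned to the genome in IR than in Sham or WI, so the libraries also differed in composition. Levels are reads per 1000000 (CPM) of library totals scaled by the trimmed mean of M-values (TMM), and a fold change is the ratio of the IR level to the Sham level with an exact 95% interval from the reads. Calls required a fold change beyond 1.5 in either direction and an unadjusted two-sided Fisher's exact p under 0.01. With 1 library in each group no difference had a replicate check, every p compares 2 libraries and not 2 conditions, and intervals cover counting error only. Levels compare a microRNA between libraries. Read shares of different microRNAs are not shares of molecules.

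The bulk of the microRNA profile in IR lay near its Sham level, where TMM scaling places it, while a minority of microRNAs differed, more often upward. Of the 409 microRNAs, 55 were called (13.4%), 44 higher in IR (10.8%) and 11 lower (2.69%). The median log2 fold change was 0.01, with quartiles of -0.29 and 0.30, and 209 microRNAs lay above 0 and 200 below. Together, the 44 called higher had a summed level of 12410 CPM (Sham), 12097 (WI) and 25494 (IR), and the 11 called lower had 1617 (Sham), 1811 (WI) and 996 (IR). The called microRNAs thus held 1.28% (higher) and 0.167% (lower) of the Sham reads. Among the names called higher, miR-486-5p and miR-3107-5p, had nearly the same reads and together made up over 50% of each sum. With miR-3107-5p left out, the remaining 43 summed to 8614 CPM (Sham), 8530 (WI) and 18665 (IR) and held 0.887% of the Sham reads.

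How many calls went each way depended on how the libraries were scaled. There were 42 higher and 13 lower with DESeq2 size factors or library totals, 40 and 15 with totals that left out the 10 most abundant microRNAs, and 35 and 28 with totals of genome-aligned reads, under which the median log2 fold change was -0.16. A further 69 microRNAs had p under 0.01 without the required fold change, 27 of them higher and 42 lower in IR. The interval lay wholly beyond a fold change of 1.5 for 33 of the microRNAs called higher and for 4 of those called lower. When a coefficient of variation of 0.2 was assumed for animals, edgeR's exact test called 22 higher and 2 lower, and with 0.4 it called 10, all of them higher (miR-2137, miR-5100, miR-5121, miR-133a-3p, miR-1195, miR-1948-5p, miR-592-5p, miR-696, miR-709 and miR-9-5p). Among these, miR-5100, miR-592-5p, miR-696, miR-709 and miR-9-5p passed the read minimum only through their IR reads. Such members can only be higher in IR, so the 10 do not show how often microRNAs rose.

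Calls were spread over the range of abundance. They were made for 8.79% of the 91 microRNAs with 10 to 29 reads, 9.88% of the 81 with 30 to 99, 18.2% of the 121 with 100 to 999, 18.8% of the 69 with 1000 to 9999 and 8.51% of the 47 with 10000 reads or more.

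**Figure D1:**
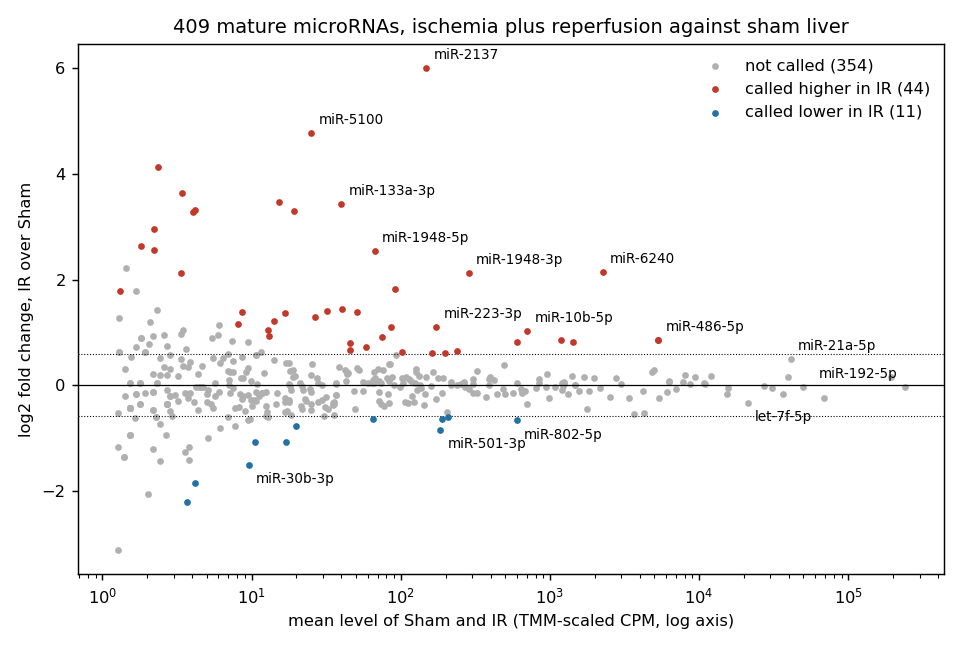
Log2 fold change of IR over Sham (vertical axis) against the mean level of the 2 libraries in TMM-scaled CPM (horizontal, log axis) for 409 microRNAs, 1 point each, with dotted lines at a fold change of 1.5. The 44 microRNAs called higher (red) reached a log2 fold change of 6.00 at miR-2137, whereas the abundant miR-192-5p, let-7f-5p and miR-21a-5p at the right lay between the lines and were not called.

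The abundant microRNAs of the liver were considered next. The 20 with the highest mean level held 87.3% (Sham), 87.7% (WI) and 86.7% (IR) of the microRNA reads, and their summed level in IR was 1.01 times that in Sham (1.01 to 1.01). None of the 20 was called, although 17 had p under 0.01, since at this depth a few percent exceeded counting error. Their log2 fold changes ran from -0.33 for let-7f-5p to 0.49 for miR-21a-5p, with 10 above 0 and 10 below.

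The small net value was the sum of opposite differences. The differences of the members that were higher in IR summed to 42578 CPM and those of the members that were lower to -32256 CPM. These sums were 70.7% of the gains (74.4% with miR-3107-5p left out) and 78.0% of the losses of all 409 microRNAs, so most of the summed differences belonged to microRNAs that were not called. The sums hold for TMM scaling. With genome-aligned totals most of the gains turned below 0, among them miR-22-3p (20309 CPM) and miR-10a-5p (4023 CPM). The others were miR-191-5p, miR-16-5p, miR-92a-3p, miR-30d-5p and let-7a-5p. Only miR-21a-5p, miR-30e-5p and miR-378a-3p stayed above 0, and the members that were lower stayed lower.

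MiR-22-3p, which is made from the exon of its own host transcript and is abundant in many tissues, had 182590 CPM (Sham), 191175 (WI) and 202899 (IR), and its fold change was 1.11 (1.11 to 1.11). MiR-21a-5p, a microRNA linked to injury and cell growth that lies in the Vmp1 gene, had 34311 CPM (Sham), 40710 (WI) and 48089 (IR), with a fold change of 1.40 (1.39 to 1.41). It stood highest in IR and had the largest fold change of the 20, short of the threshold of 1.5. With genome-aligned totals the log2 fold change of miR-21a-5p was 0.32 and that of miR-22-3p turned to -0.02.

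MiR-10a-5p, from the Hoxb cluster, had 37424 CPM (Sham), 39085 (WI) and 41447 (IR), a fold change of 1.11 (1.10 to 1.12) that also turned below 0 (log2 -0.02) with genome-aligned totals. MiR-378a-3p, which lies in the gene of a metabolic coactivator, was at 11303, 11678 and 12761 CPM in the same order, with a fold change of 1.13 (1.11 to 1.14). For miR-22-3p, miR-21a-5p, miR-10a-5p and miR-378a-3p alike, WI lay between Sham and IR.

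On the other side, miR-148a-3p, a hepatocyte microRNA linked to cholesterol handling, had 74623 CPM (Sham), 84092 (WI) and 62835 (IR), and its fold change was 0.842 (0.838 to 0.847). MiR-143-3p, made mainly by smooth muscle and stromal cells, had 38597, 42013 and 34215 CPM, a fold change of 0.886 (0.880 to 0.893). Let-7f-5p, of the growth-restraining let-7 family, had 23485, 27048 and 18687 CPM, a fold change of 0.796 (0.788 to 0.804). In these 3 microRNAs, and in miR-126a-5p of endothelium (16311, 19832 and 14583 CPM), the WI library was the highest and IR the lowest.

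The most abundant microRNA, miR-192-5p, had 243175 CPM (Sham), 258042 (WI) and 236770 (IR), a fold change of 0.974 (0.971 to 0.976). The liver-specific miR-122-5p had 15960, 18999 and 15364 CPM, a fold change of 0.963 (0.952 to 0.974). The intervals of miR-30d-5p and let-7a-5p took in 1, with fold changes of 1.01 (0.998 to 1.03) and 1.01 (0.997 to 1.03). Both turned below 0 on the log2 scale under each of the other scalings.

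**Figure D2:**
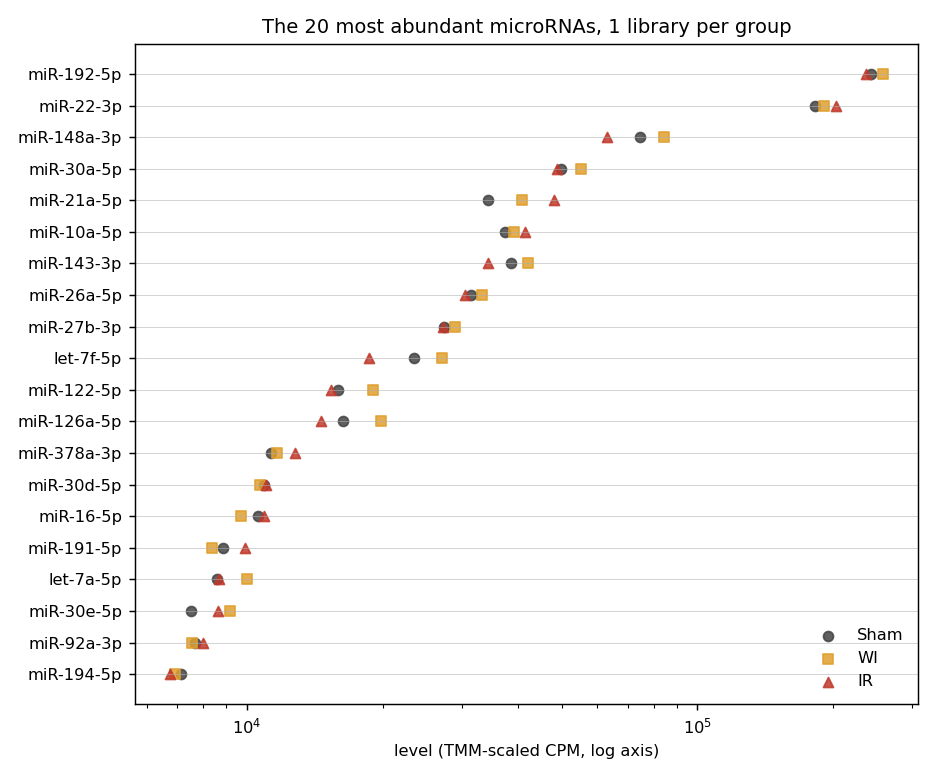
Level in TMM-scaled CPM (horizontal, log axis) of the 20 most abundant microRNAs in the Sham, WI and IR libraries, 1 symbol for each library. For most microRNAs the symbols nearly coincide, while miR-21a-5p runs from 34311 CPM in Sham to 48089 in IR and let-7f-5p from 23485 to 18687.

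Among microRNAs called higher with at least 50 reads over both libraries, the largest fold change was that of miR-2137, from a hairpin within the span of Zfp185 (chrX:72992079-72992144, GRCm38, plus strand). Its reads were 18 in Sham, 22 in WI and 1115 in IR, and its level in IR was 64.1 times that in Sham (40.4 to 109). The WI level of 4.52 CPM was next to the 4.55 CPM of Sham, and both were far below the 292 CPM of IR. MiR-5100, within the span of Mief2 (chr11:60728663-60728726, plus strand), had 7, 75 and 186 reads, a fold change of 27.5 (13.1 to 69.4). MiR-5121, within the span of Rpl13a (chr7:45126918-45126991, minus strand), had 10, 20 and 107 reads, a fold change of 11.1 (5.80 to 23.8).

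MiR-133a-3p, a microRNA of skeletal and heart muscle, had 27 reads (Sham), 115 (WI) and 280 (IR), a fold change of 10.7 (7.22 to 16.6). For miR-5100 and miR-133a-3p the WI library lay well above Sham, at 15.4 and 23.6 CPM against 1.77 and 6.82. MiR-1195 had 14, 12 and 133 reads, a fold change of 9.84 (5.66 to 18.5), with WI at the Sham level.

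Both arms of the miR-1948 hairpin rose in IR. MiR-1948-5p had 78 reads (Sham), 150 (WI) and 436 (IR), a fold change of 5.79 (4.54 to 7.46). MiR-1948-3p had 419, 523 and 1774 reads, a fold change of 4.38 (3.94 to 4.89). By level, miR-1948-3p in WI (107.5 CPM) was close to Sham (105.8 CPM) and far below IR (464 CPM). The 5p arm stood higher in WI than in Sham, and its share of the hairpin's reads was 15.7% (Sham), 22.3% (WI) and 19.7% (IR).

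MiR-6240 was the most abundant of the 10, with 831 CPM (Sham), 569 (WI) and 3692 (IR) and a fold change of 4.44 (4.28 to 4.62). MiR-5126 had 160, 201 and 548 reads, a fold change of 3.55 (2.97 to 4.26). MiR-690 had 86, 140 and 226 reads, a fold change of 2.72 (2.11 to 3.53). In these 3, as in the other 7 described before them, IR was the highest of the 3 libraries.

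Of the 44 microRNAs called higher, 35 had at least 50 reads. Among the scarcer ones, miR-696 had 0 (Sham), 3 (WI) and 17 (IR) reads, which was at least 5.87-fold higher than the 3 reads taken as the floor of the Sham library. MiR-1895 had 0, 6 and 10 reads and was at least 3.45-fold higher.

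Several of the microRNAs described above carry a number without an arm, the form given to hairpins for which only 1 product was annotated. Of the 409 microRNAs, 43 had such a name, and 19 of them were called higher and 2 lower, with a median log2 fold change of 0.79. Of the 366 named with an arm, 25 were called higher and 9 lower. Reads counted at a hairpin can include pieces of longer RNAs from the same place, and their part in these calls was not tested.

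Smaller fold changes belonged to better-known microRNAs. MiR-10b-5p had 463 CPM (Sham), 701 (WI) and 942 (IR), a fold change of 2.03 (1.92 to 2.15). MiR-23b-3p, which shares its primary transcript with miR-27b, had 839, 1053 and 1516 CPM, a fold change of 1.81 (1.73 to 1.89). Its neighbour miR-27b-3p had 27411, 28957 and 27175 CPM, a fold change of 0.991 (0.983 to 0.9999), so the mature products of 1 transcript did not differ alike.

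Among the 9 microRNAs called lower with at least 50 reads, the lowest ratio was that of miR-30b-3p, the scarce arm of an abundant hairpin, with 56 reads (Sham), 58 (WI) and 19 (IR). Its level in IR was 0.351 times that in Sham (0.197 to 0.600, Fisher's exact p = 3.86e-05). MiR-16-1-3p had 57, 82 and 26 reads, a ratio of 0.472 (0.285 to 0.764). MiR-6238 had 92, 62 and 42 reads, a ratio of 0.473 (0.320 to 0.688), and its WI level (12.7 CPM) was already near that of IR.

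The 2 arms of miR-802, a hepatocyte microRNA linked to glucose metabolism, fell together. MiR-802-5p had 734 CPM (Sham), 945 (WI) and 462 (IR), a ratio of 0.630 (0.593 to 0.668). MiR-802-3p had 249, 316 and 164 CPM, a ratio of 0.659 (0.596 to 0.729). Both arms were highest in WI and lowest in IR.

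MiR-501-3p, from an intron of Clcn5, had 236 CPM (Sham), 165 (WI) and 131 (IR), a ratio of 0.557 (0.499 to 0.622), with WI between the other libraries. MiR-32-5p had 99, 169 and 56 reads, a ratio of 0.586 (0.414 to 0.821). MiR-3968 (910, 973 and 562 reads) and miR-30d-3p (315, 462 and 196 reads) completed the 9, with ratios of 0.640 (0.575 to 0.711) and 0.644 (0.536 to 0.773). The remaining 2 called lower, miR-1247-3p (24, 40 and 5 reads) and miR-125a-3p (26, 27 and 7 reads), had fewer than 50 reads.

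**Figure D3:**
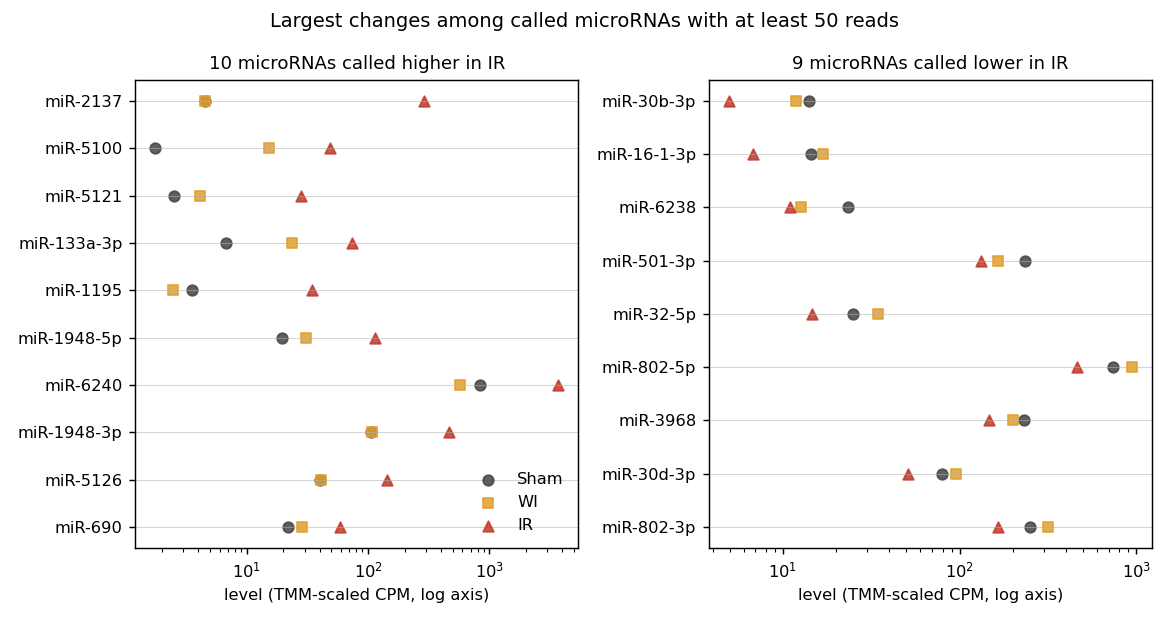
Level in TMM-scaled CPM (horizontal, log axis) of the 10 microRNAs called higher (left) and the 9 called lower (right) in IR with at least 50 reads, ordered by fold change, with 1 symbol for each of the Sham, WI and IR libraries. MiR-2137 goes from 4.55 CPM in Sham to 292 in IR while its WI symbol covers that of Sham, and miR-802-5p goes from 734 to 462 CPM with WI at 945.

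Seed families were then summed, since members of a family compete for the same targets and a large fold change in a scarce member can leave the dose of a seed as it was. Of 36 families with at least 2 members and 100 reads, which took in 99 microRNAs, 3 were called (8.33%), 2 higher in IR (5.56%) and 1 lower (2.78%). In 19 families some members lay above 0 and others below.

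The family of miR-132-3p and miR-212-3p, which are made from 1 transcript that neuronal and inflammatory signals induce, had 148 reads (Sham), 145 (WI) and 349 (IR), a fold change of 2.44 (2.01 to 2.98). Both members were called, miR-132-3p at 112, 121 and 283 reads and miR-212-3p at 36, 24 and 66 reads, although miR-212-3p lost its call with genome-aligned totals (log2 0.76) and at each coefficient of variation assumed (0.1, 0.2 and 0.4). The ratio of miR-212-3p to miR-132-3p in IR was 0.726 times that in Sham (0.457 to 1.15), an interval that takes in 1.

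The family of miR-6240 and miR-330-3p was called higher at 4.43 (4.27 to 4.60), from 3301, 2780 and 14128 reads. MiR-6240 alone held 99.9% of these reads, and miR-330-3p had 10, 12 and 11. The family of miR-501-3p and miR-500-3p, both from hairpins in Clcn5, was called lower at 0.569 (0.511 to 0.632), from 989, 851 and 543 reads. MiR-500-3p alone had 56, 46 and 41 reads and was not called. Assuming a coefficient of variation of 0.2, the miR-501-3p family was no longer called, and with 0.4 no family was.

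None of the 10 families with the most reads was called. The miR-192 family had a fold change of 0.974 (0.971 to 0.977), although miR-215-5p in it rose from 55.1 CPM in Sham and 57.1 in WI to 117 in IR, a fold change of 2.13 (1.81 to 2.52). MiR-215-5p differs from miR-192-5p at 3 bases and held 0.0226% of the family's reads in Sham and 0.0496% in IR. The rise of miR-215-5p was therefore not visible in the sum.

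The miR-10 family showed the same layout at a smaller distance. Its fold change was 1.12 (1.11 to 1.13), while miR-10b-5p, 1 base from miR-10a-5p, rose relative to it by a factor of 1.84 (1.74 to 1.94) and took 1.22% of the family in Sham, 1.76% in WI and 2.22% in IR. With genome-aligned totals the log2 fold change of the family was -0.01.

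The let-7 family of 9 members had 195535 reads (Sham), 270437 (WI) and 168056 (IR), and its fold change was 0.890 (0.884 to 0.896). Much of the difference lay in let-7f-5p, which held 47.6% of the family in Sham and 42.5% in IR. Let-7a-5p, 1 base from let-7f-5p, was 1.27 times as high relative to it in IR as in Sham (1.249 to 1.295), and let-7c-5p was 1.32 times as high (1.30 to 1.35). Reads of such near-identical microRNAs can be assigned to either name, so shares within the family are less certain than its sum.

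The miR-148 family had a fold change of 0.845 (0.840 to 0.849), and within it miR-148b-3p was 1.21 times as high relative to miR-148a-3p in IR as in Sham (1.17 to 1.26). The miR-21 family had a fold change of 1.40 (1.39 to 1.41), which was that of miR-21a-5p, since miR-21c had 7, 7 and 5 reads. The miR-30 family of miR-30a-5p, miR-30e-5p and miR-30c-5p had a fold change of 1.02 (1.01 to 1.03). With miR-30d-5p and miR-30b-5p placed in it by name, for which no RefSeq sequence was at hand, its fold change was again 1.02.

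Of the rest of the 10, the miR-26 family had a fold change of 0.957 (0.9504 to 0.9644), the miR-27 family 0.990 (0.982 to 0.999), the miR-15 and miR-16 family 1.02 (1.01 to 1.04) and the miR-25 and miR-92 family 1.05 (1.04 to 1.07). In the miR-92a-3p family miR-32-5p was called lower while the sum was not. Placing members by name also gave a family of miR-23b-3p and miR-23a-3p with 4494, 6825 and 7158 reads, which was called higher at 1.65 (1.59 to 1.71).

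Next in number of reads stood 3 families that were not called with TMM scaling and were chosen after their values were seen. The miR-99 and miR-100 family had 7689 CPM (Sham), 6240 (WI) and 5547 (IR), a fold change of 0.721 (0.709 to 0.734), and all 3 members lay below 0. The miR-125 and miR-351 family had 6163, 6121 and 4762 CPM, a fold change of 0.773 (0.758 to 0.788), in which miR-351-5p was 1.92 times as high relative to miR-125a-5p in IR as in Sham (1.79 to 2.06). The miR-181 family had 5215, 5704 and 6113 CPM, a fold change of 1.17 (1.15 to 1.19), with all 4 members above 0, although miR-181c-5p, at a log2 fold change of 0.04, lay within the shift between scalings.

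**Figure D4:**
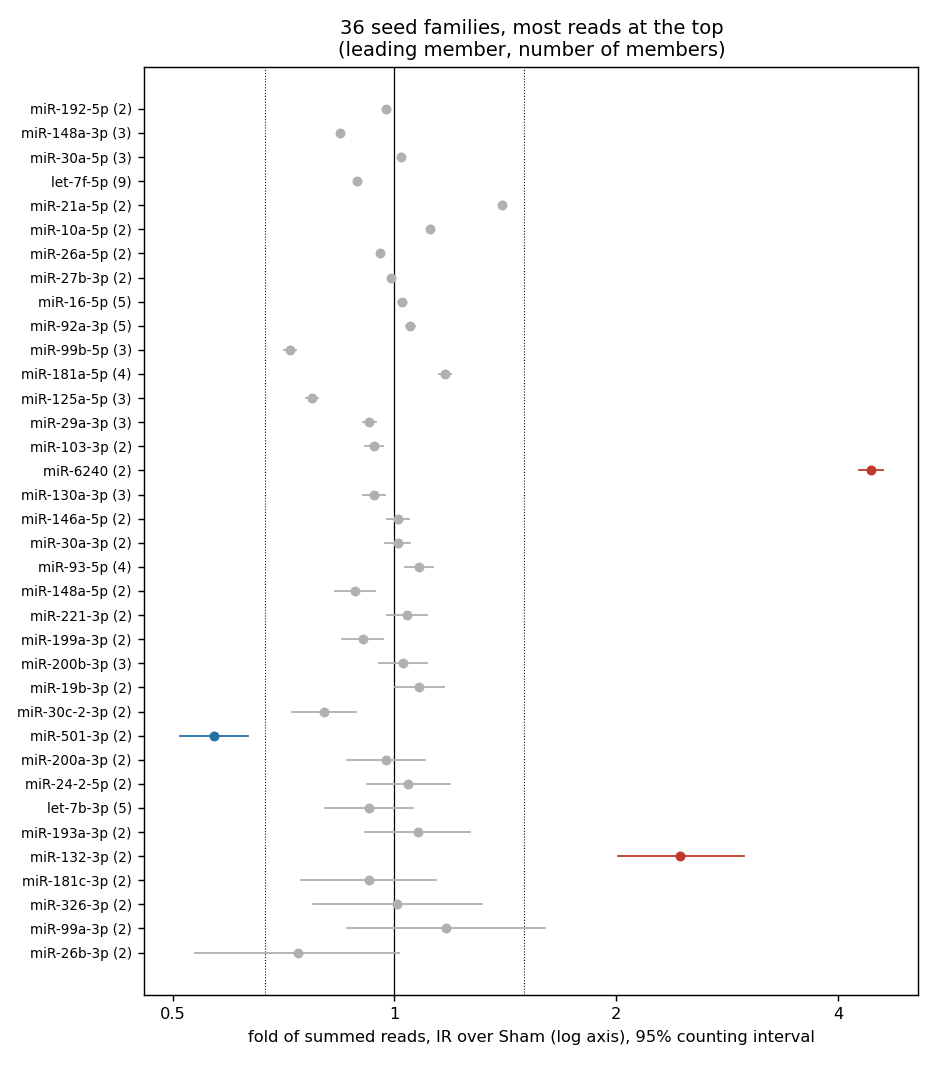
Fold change of the summed reads of 36 seed families, IR over Sham (horizontal, log axis), with 95% counting intervals and dotted lines at a fold change of 1.5 in each direction, named by the leading member with the number of members in parentheses. The families of miR-6240 (4.43) and miR-132-3p (2.44) lie to the right of the lines and that of miR-501-3p (0.569) to the left, while the families at the top, which hold the most reads, stay between them.

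The arms of a hairpin were compared next, because their ratio within a library needs no scaling between libraries. Of 68 hairpins with at least 50 reads in each arm, 4 had arms that differed unequally between IR and Sham (5.88%) at a ratio above 1.5 with p under 0.01, 2 toward the 5p arm (2.94%) and 2 toward the 3p arm (2.94%), and 34 had a ratio within 1.2 in either direction. In each of these 4 the arm with fewer reads over both libraries lost share. For miR-212 that arm, 5p, was the one with more reads in Sham (47 against 36), so its rank rested on the IR reads.

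MiR-30b-5p had 3511 reads (Sham), 4894 (WI) and 3936 (IR), while miR-30b-3p went from 56 and 58 to 19. The ratio of 5p to 3p was 3.30 times as high in IR (1.96 to 5.57, Fisher's exact p = 1.96e-06). For miR-30d, with 43150, 51911 and 42143 reads of the 5p arm and 315, 462 and 196 of the 3p arm, it was 1.57 times as high (1.31 to 1.88, Fisher's exact p = 6.12e-07). In both hairpins the abundant 5p arm was not called and the 3p arm was called lower.

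MiR-223, a microRNA of neutrophils and monocytes, showed the reverse arrangement. MiR-223-3p had 435, 528 and 902 reads in Sham, WI and IR, and miR-223-5p had 39, 55 and 22. The ratio of 3p to 5p was 3.68 times as high in IR as in Sham (2.15 to 6.28, Fisher's exact p = 1.21e-06). For miR-212, with 47, 36 and 29 reads of the 5p arm and 36, 24 and 66 of the 3p arm, it was 2.97 times as high (1.61 to 5.50, Fisher's exact p = 0.000500), so the 3p arm held 43.4% of the reads in Sham and 69.5% in IR.

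Both arms of miR-1948 and, with TMM scaling alone, both arms of miR-144 were called higher and both arms of miR-802 lower, and no hairpin had its arms called in opposite directions. Over the 68 hairpins, which share the same 2 libraries, Pearson's r between the log2 fold changes of the 5p and 3p arms was 0.43 and Spearman's rho 0.18. Without miR-1948, r was 0.02, so the value rested on that hairpin.

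**Figure D5:**
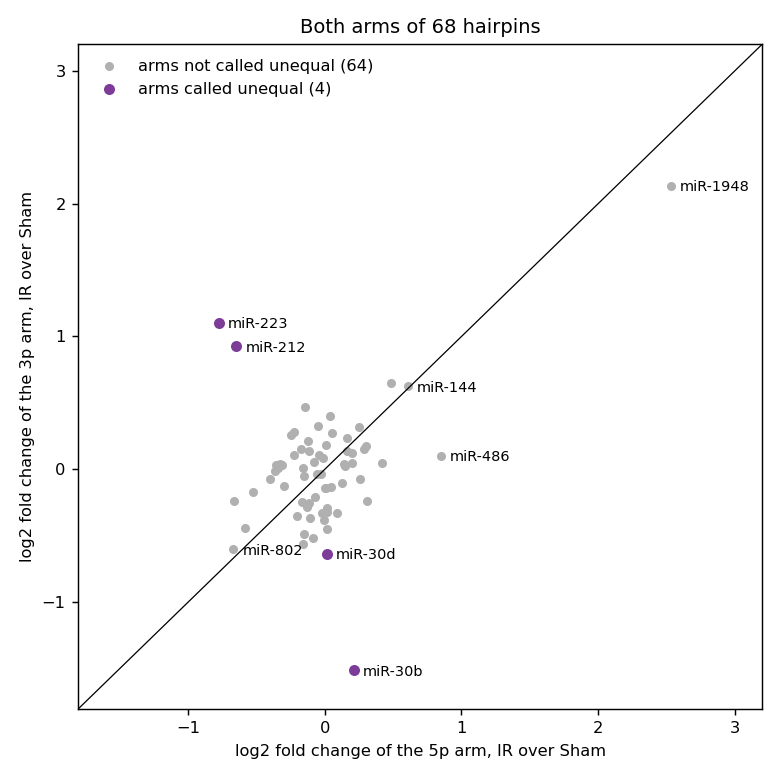
Log2 fold change of the 3p arm (vertical) against that of the 5p arm (horizontal), IR over Sham, for 68 hairpins with at least 50 reads in each arm, with the line of equal change. The 4 unequal hairpins (purple) lie off the line, miR-223 and miR-212 above it and miR-30d and miR-30b below, and miR-1948 sits alone at the upper right.

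Markers of the cell types in the organ were read as lists. These lists were drawn up with earlier results of these data known, so the shares called in them are descriptions and not tests. In bulk tissue, fewer cells of a type and less RNA in each cell cannot be told apart. The 5 hepatocyte microRNAs were all abundant or well detected, so the tissue label held, and all 5 lay below 0, with a median log2 fold change of -0.08 against 0.01 for all 409. MiR-802-5p was the one that was called.

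All 4 red blood cell microRNAs were called higher, against 10.8% of all microRNAs, with a median log2 fold change of 0.73. With DESeq2 size factors or library totals 3 of the 4 were called, and with either of the other scalings 2, miR-451a and miR-486-5p, while all 4 stayed above 0. The summed level of the 4 was 5055 CPM (Sham), 4782 (WI) and 9020 (IR). MiR-451a, which is matured by Argonaute2 and accumulates in red cells, had 1037, 959 and 1838 CPM, a fold change of 1.77 (1.70 to 1.84). MiR-144, its neighbour on the same transcript, had fold changes of 1.54 (1.34 to 1.79) for the 3p arm and 1.52 (1.36 to 1.71) for the 5p arm.

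MiR-486-5p, also of red cells and muscle, had 15084 reads (Sham), 17442 (WI) and 26245 (IR), a fold change of 1.80 (1.77 to 1.84). MiR-3107-5p had nearly the same reads (15033, 17354 and 26113), so the pair may be 1 set of reads counted under 2 names, although both names are among the 44 called higher. All 4 red cell microRNAs were highest in IR, and the WI level lay below Sham for miR-451a and miR-486-5p and above it for both arms of miR-144. MiR-144-3p had 79.8 CPM (Sham), 107.1 (WI) and 123 (IR), and miR-144-5p had 129, 130.1 and 196. At an assumed coefficient of variation of 0.2 none of the 4 was called.

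The 5 leukocyte microRNAs differed among themselves. MiR-223-3p had 110 CPM (Sham), 109 (WI) and 236 (IR), a fold change of 2.15 (1.91 to 2.41), and was called higher. MiR-142-5p, present across blood lineages, had 2735, 2672 and 2342 CPM, miR-150-5p of lymphocytes 119, 104 and 95.4, and miR-155-5p of activated cells 20.2, 16.6 and 14.4. MiR-142-3p lay on the other side, at 110 CPM (Sham), 152 (WI) and 119 (IR). None of the other 4 was called, and the list had a median log2 fold change of -0.22. With genome-aligned totals 1 of these 4 was called lower.

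None of the 2 endothelial or 5 stromal microRNAs was called, with medians of -0.07 and -0.08, and 13.4% of all microRNAs were. Of the muscle list, miR-133a-3p alone reached 10 reads, and its other members stayed near 0: miR-1a-3p had 0 reads (Sham), 1 (WI) and 6 (IR), and miR-133b-3p 0, 2 and 4. Summed over the 7 listed muscle microRNAs, the level was 6.82 CPM (Sham), 25.3 (WI) and 76.9 (IR). Of the 3 microRNAs listed for neurons, miR-9-5p rose (3, 4 and 29 reads), miR-128-3p (151, 233 and 179) was not called, and miR-124-3p had 0, 0 and 4 reads. Of the pancreas list only miR-375-3p was detected well (45, 86 and 36 reads), and it was not called. What part these cell types had in the levels of single microRNAs was not tested.

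Among 8 microRNAs linked to inflammation that passed the read minimum, 4 were called higher and 0 lower, against 10.8% and 2.69% of all microRNAs, with a median log2 fold change of 0.71. They were miR-132-3p, miR-212-3p, miR-223-3p and miR-9-5p, of which the last had 3 reads in Sham and 29 in IR and so passed the read minimum through IR. With genome-aligned totals 3 were called higher, without miR-212-3p, and 1 lower. The microRNAs of this list best known as targets of inflammatory signalling were not called, since miR-146a-5p had 1469 CPM (Sham), 1478 (WI) and 1470 (IR), miR-146b-5p had 184, 182 and 203, and miR-155-5p had its lowest level in IR. MiR-21a-5p, also on the list, was not called at a log2 fold change of 0.49. The inflammation list shares miR-223-3p and miR-155-5p with the leukocyte list and miR-9-5p with the neuron list, so their counts are not independent. MiR-132-3p and miR-212-3p come from 1 transcript, and the list was drawn up with earlier results of these data known. Its share of calls is therefore a description and not a test.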

How the data were processed

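Small RNA libraries of mouse liver (Sham, WI, IR; 1 each) were grouped by sample title. The authors deposited raw read counts per mature microRNA. Per the study's methods they removed adaptors, kept reads of 15 to 30 nt, aligned them with Bowtie 0.12.7 (1 mismatch; reads with over 5 positions dropped), sorted them with HTSeq and counted with miRDeep2. The methods name mm9 for this step and the labels name mm10; the counts are by name and carry no coordinates. Counting by hairpin position also takes in pieces of longer RNAs from the same place, and reads of near-identical microRNAs can go to either name.

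TMM factors were computed with edgeR 4.0.16 (R version 4.3.3) and applied to the counts (1.03 for Sham, 0.961 for WI, 1.01 for IR). The quasi-likelihood test of edgeR could not be fitted with 1 library per group, so Fisher's exact test (scipy 1.17.1) on reads and scaled totals was used, with the study's thresholds (fold change above 1.5, unadjusted p under 0.01). Folds carry exact conditional binomial intervals. Against 0 reads the fold was bounded at 3 reads in that library (0.758 CPM in Sham, 0.617 in WI, 0.785 in IR). No molecular identifiers were used, so intervals and floors cover counting error only.

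Sequences came from RefSeq (GRCm38.p6) and matched 347 of 409 microRNAs. Families took members with equal bases 2 to 8, with identical sequences counted once. Positions are those of RefSeq on GRCm38.

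Named microRNAs were the 20 most abundant, the 10 called in each direction with the largest fold change and at least 50 reads, the 10 families with most reads, the called families, the hairpins with unequal arms and the members of the lists. Others (miR-10b-5p, miR-215-5p, miR-3107-5p, miR-696, miR-1895, miR-1247-3p, miR-125a-3p, and families and microRNAs of middle abundance) were chosen after their values were seen. The members and lists were chosen with earlier results of these data known. Alternatives changed scaling (library totals, genome-aligned totals, totals that left out the 10 most abundant microRNAs, or size factors from DESeq2 1.42.0), read minimum, pseudocount, thresholds, seed and family definitions, or used the exact test of edgeR with a coefficient of variation assumed at 0.1, 0.2 or 0.4. Calls were checked on simulated counts with known large changes and counting error only. The simulation held no variation between animals, so it cannot show how the calls would hold across animals.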

Additional observations from a re-analysis of the deposited data

How the results depend on the processing

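No paired analysis was possible because each group had 1 library, and no library could be left out for the same reason. Of 442 recomputed values of named microRNAs and families, 393 kept their direction and their side of the thresholds, 24 reversed, 24 lost their call and 1 gained one. The count called lower was 28 with genome-aligned totals, 7 with a read minimum of 100, 18 at p under 0.05 and 26 at the lower fold threshold tried. At a fold change above 2, 35 were called, 5 of them lower. With an assumed coefficient of variation of 0.2 the calls were 24 (22 higher, 2 lower), and with 0.4 they were 10 (10 higher, 0 lower). With microRNAs named with an arm only, an alternative added after seeing the data, 34 were called, 25 of them higher. Leaving out miR-3107-5p, also added later, gave 54, of them 43 higher. The median log2 fold change was -0.053 with totals that left out the 10 most abundant microRNAs, -0.16 with genome-aligned totals and 0.050 with a read minimum of 1. The log2 net change of the 20 most abundant microRNAs (0.02) was -0.0088 (DESeq2 size factors), -0.010 (library totals), -0.047 (totals without the top 10), -0.15 (genome-aligned totals) and 0.025 for the 50 most abundant. Families called were 5 (3 lower) with genome-aligned totals and 0 (0 higher, 0 lower) with families of 3 or more members or an assumed coefficient of variation of 0.4. With 0.2, 0 families were called lower. With families also placed by name, added after seeing the data, 3 were called higher. With 200 reads in each arm, 1 hairpin was unequal.

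Reversed log2 values with genome-aligned totals were -0.016 for miR-22-3p, -0.021 for miR-10a-5p, -0.15 for miR-30d-5p, -0.13 for miR-16-5p, -0.0035 for miR-191-5p, -0.15 for let-7a-5p, -0.11 for miR-92a-3p, and -0.14, -0.0063, -0.13 and -0.10 for the families of miR-30a-5p, miR-10a-5p, miR-16-5p and miR-92a-3p. With totals that left out the 10 most abundant microRNAs they were -0.048 for miR-30d-5p, -0.024 for miR-16-5p, -0.047 for let-7a-5p, -0.011 for miR-92a-3p, and -0.035 and -0.029 for the families of miR-30a-5p and miR-16-5p. By DESeq2 size factors miR-30d-5p was at -0.0099 and let-7a-5p at -0.0090, and by library totals at -0.012 and -0.011. Without its leading member the log2 fold change of the miR-192-5p family was 1.09, of the miR-21a-5p family -0.44 and of the miR-16-5p family -0.012. These sums then hold only the scarce members. The other reversals came with a change of scaling, which moves every log2 value by 1 constant. Small differences in abundant microRNAs exceeded counting error but not the range of the scalings, and 52 microRNAs passed the fold threshold without p under 0.01.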

Other observations

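Further groups of microRNAs lie together in the genome, and their lists too were drawn up with earlier results of these data known. The imprinted Dlk1-Dio3 region, a large cluster expressed mainly from the maternal chromosome and low in adult liver, had 16 of its 88 listed microRNAs past the read minimum. Of these, 3 were called higher and 0 lower, against 10.8% and 2.69% of all microRNAs, 13 lay above 0, and the median log2 fold change was 0.55 against 0.01 for all microRNAs. The list left out miR-134-5p, which lies between listed members, and both arms of miR-1247, past them on chr12 (110278048-110278129, GRCm38). MiR-1247-3p was called lower (log2 fold change -2.21), so these counts hold for the list alone. MiR-127-3p had 618 reads (Sham), 692 (WI) and 909 (IR), miR-434-3p 37, 65 and 92, and miR-541-5p 132, 110 and 221. The summed level over the listed microRNAs was 332 CPM (Sham), 279 (WI) and 500 (IR). MiR-300-3p and miR-381-3p had equal reads in Sham (34) and in IR (49), so their counts are uncertain. With genome-aligned totals 12 of the 16 lay above 0, and under each of the other scalings tried miR-127-3p was not called.

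The microRNAs in the intron of Clcn5 lay mostly on the other side, with 7 of 8 below 0 and a median log2 fold change of -0.30, although miR-501-3p alone was called, against 2.69% of all microRNAs called lower (2 of the 8 with genome-aligned totals). MiR-532-5p, the most abundant of them, had 293 CPM (Sham), 247 (WI) and 280 (IR). MiR-362-3p had 87, 85 and 57 reads.

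MicroRNAs linked to low oxygen and to p53, 2 of each past the read minimum, were read singly. MiR-210-3p, which hypoxia-inducible factor drives, had 135 reads (Sham), 198 (WI) and 165 (IR) and was not called. MiR-34a-5p had 135, 214 and 112 reads and was not called, and miR-34c-5p was called higher from 20, 44 and 43 reads, except with genome-aligned totals. Of 7 microRNAs linked to lipid metabolism, miR-802-5p alone was called, a share near the 13.4% of all microRNAs. The clusters of miR-17 and of miR-106b, which promote cell growth, had 10 and 6 microRNAs past the read minimum and none of them was called, against 13.4% of all microRNAs.

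By sequence, the 28 microRNAs that begin with G had a median log2 fold change of 0.22, against -0.09 for the 97 that begin with A, -0.13 for the 81 with C and 0.0005 for the 141 with U. Over the 202 microRNAs with at least 100 reads and a sequence, Pearson's r between GC content and log2 fold change was 0.33, and over the 182 of them named with an arm it was 0.07. These are correlations across microRNAs of the same 2 libraries and are given as descriptions.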
